A study of Caenorhabditis elegans with 12 samples.

Results

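The genes described here encode the proteins of P granules and of the small RNA pathways of the nematode Caenorhabditis elegans. They were chosen by name from a list of 44 genes, and 42 of them were found by that name among the 21982 genes of the deposited table. The missing names were rde-3 and znfx-1, whose rows carry other names and are given separately below. Averaged over the libraries, all 42 reached 10 normalized counts, the level needed to be tested, but alg-3 and alg-4 reached that mean only through Red worms, and alg-4 only through Red replicate 1, without which its mean was 5.53. RNA had been extracted from whole worms of strain KH2235 on day 6, which carry a splicing reporter made from a minigene of ret-1. Worms with mostly GFP formed the Green group and worms with mostly mCherry the Red group, with 6 libraries each and 1 of each colour in each of 6 batches. Both groups share the strain, the reporter and the day, and differ in the labels by colour alone. How many worms entered a library, and whether the libraries of a group are separate cultures, the labels leave unsaid; p-values then reflect only how much these libraries vary. Messenger RNA was sequenced, so the small RNAs themselves were not measured.

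Recovered totals ran from 30185155 to 87141961 reads per library, and they limit the precision only for alg-3 and alg-4. Red replicate 6 stood apart from the other Red libraries. Of all 14618 genes tested, it was the highest Red library for 32.8% and the lowest for 33.9%. Where leaving it out ends a call, brings one or moves a log2 fold by more than 1.5 times, the value without it is given. Germline RNA was abundant in every library, with a summed level of 36 genes of meiosis and germ cell development between 336524 and 388340 normalized counts in Green libraries, and between 235975 and 338001 in Red libraries. In RNA from whole worms, fewer germ cells and less RNA per germ cell cannot be told apart.

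P granules are condensates of RNA and protein that surround the nuclei of germ cells and are passed to the germline precursors of the embryo. Small RNAs bound by Argonaute proteins are loaded, used and copied in and around them: Dicer cuts double-stranded RNA into primary small RNAs, RNA-dependent RNA polymerases copy target RNAs into secondary small RNAs, and worm-specific Argonautes carry these to matching transcripts in the cytoplasm or the nucleus. MicroRNAs use a separate pair of Argonautes that act mainly in somatic tissues.

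Most of these genes were somewhat higher in Green worms. Among the 42, 25 (59.5%) passed as higher in Green at an adjusted p under 0.05 (limma, with the Benjamini-Hochberg adjustment, BH, over all genes), against 19.0% of all genes tested. Only 4 (9.52%) passed as lower, against 20.1% of all genes. In either direction 29 (69.0%) passed, against 39.1% of all genes, and 13 were not called. The differences were small: the median log2 fold of Green over Red was 0.33 over the 42 genes, beside 0.037 over all genes, and the highest belonged to meg-1 at 0.61. Those lower in Green were the microRNA Argonaute gene alg-1, the sperm Argonaute genes alg-3 and alg-4, and the RNA polymerase gene rrf-2. Of these, alg-3 and alg-4 reached the mean needed to be tested only through Red worms. With a mean of at least 50 required, alg-3 and alg-4 were no longer tested, and 25 passed as higher and 2 as lower. Beside these stood 2717 and 2046 of all genes that met this filter, a smaller number than the genes tested above and not given here. Without Red replicate 6, 30 passed as higher and 3 as lower, against 29.3% and 25.5% of all genes. With each library centred on its median gene, 32 passed as higher and 4 as lower, against 28.5% and 16.0% of all genes. After quantile normalization 17 passed as higher and 3 as lower (alg-1, alg-2 and rrf-2), against 16.1% of all genes in each direction. That last setting ended the calls of glh-3, glh-1, rde-1, rde-10, eri-1, mut-15, ego-1, rrf-3, alg-3 and alg-4, and lowered the median to 0.17.

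**Figure D1:**
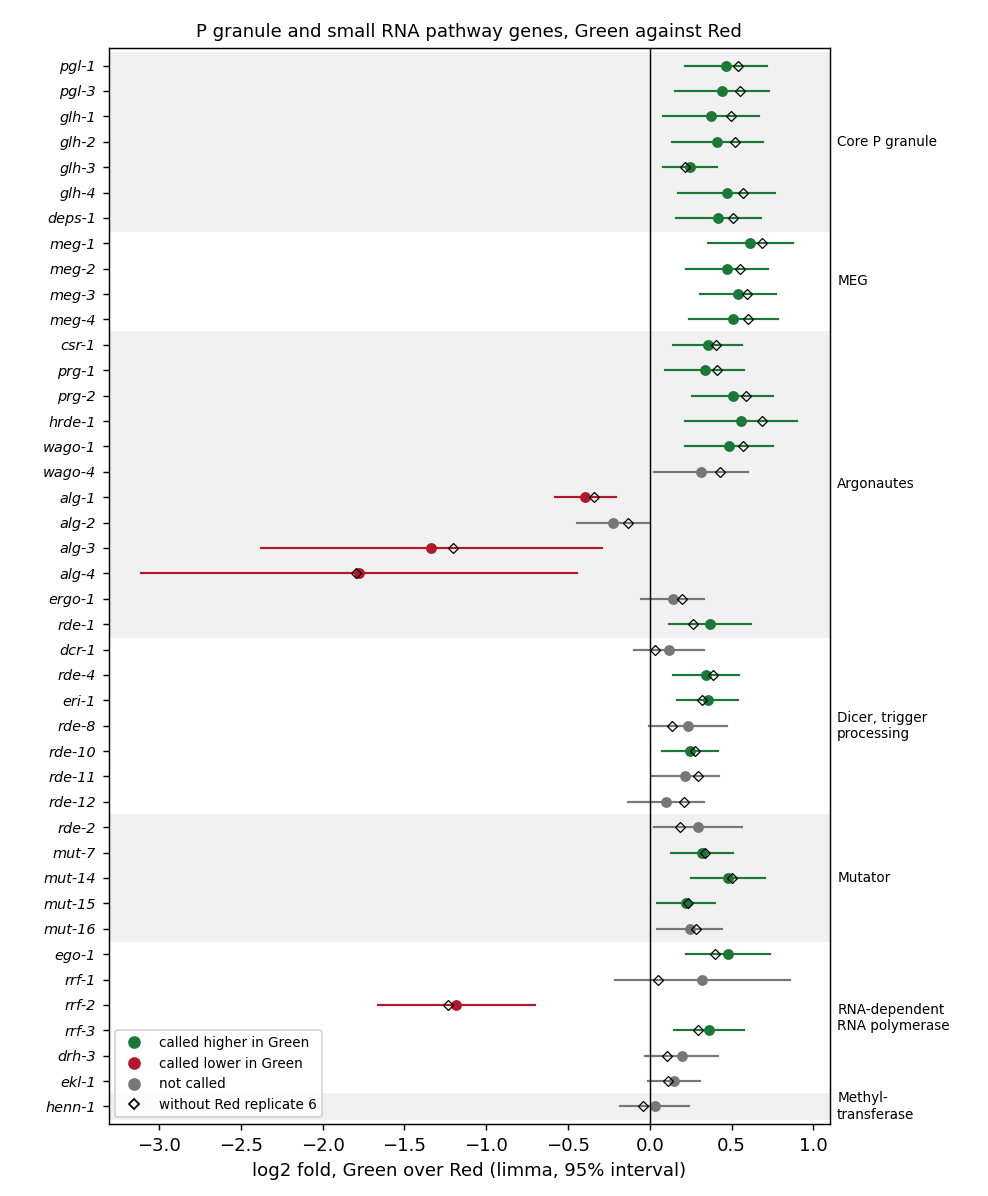
Log2 fold of Green over Red for each of the 42 genes, ordered by role from top to bottom. Points and bars are the limma estimate and its 95% interval over 6 Green and 6 Red libraries, coloured by call, and open diamonds are the estimates without Red replicate 6. All 7 core P granule genes and all 4 MEG genes lie to the right of 0, while alg-1, alg-3, alg-4 and rrf-2 are called to the left. The interval of alg-2 also leaves out 0, but it did not pass after adjustment.

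The 7 core P granule genes were all called higher in Green, against 19.0% of all genes. pgl-1, which encodes a scaffold protein of the granule, ran from 30636 to 37137 normalized counts (median 31703) in Green worms, and from 18592 to 29909 (median 23538) in Red worms. The groups did not overlap, with the highest Red value in replicate 6 just under the lowest Green value. Its log2 fold was 0.47 (SE 0.12; limma BH-adjusted p = 0.0072). Its paralog pgl-3 ran from 13841 to 17126 normalized counts (median 15096) in Green worms, and from 8749 to 16546 (median 11066) in Red worms. The overlap came from Red replicate 6 alone, since the other Red libraries reached no more than 12504. The log2 fold of pgl-3 was 0.44 (limma BH-adjusted p = 0.019). deps-1, needed for P granule assembly, had a log2 fold of 0.42 (limma BH-adjusted p = 0.016).

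The glh genes encode helicases of the Vasa family that sit in P granules. glh-4 had 13112 ± 983 normalized counts in Green worms and 9709 ± 2505 in Red worms (SD, n = 6 each), a log2 fold of 0.47 (limma BH-adjusted p = 0.016). glh-1 and glh-2 followed at 0.38 and 0.41 (limma BH-adjusted p = 0.041 and 0.021). glh-3 differed least, at 0.25 (limma BH-adjusted p = 0.024), and was the only core gene whose lowest Red value was in replicate 6. The call of glh-1 was close to the threshold. It was lost in edgeR (adjusted p = 0.059), in DESeq2, with no filter and without any 1 of 10 libraries, all but Red replicates 1 and 6. Without Red replicate 6 its log2 fold was 0.50 (limma BH-adjusted p = 0.00099). glh-2 was no longer called with Green replicate 3 or Red replicate 2, 4 or 5 left out, nor was glh-3 with Green replicate 3 or Red replicate 2 or 4 left out, with limma BH-adjusted p of 0.050 to 0.059 for these fits. glh-1 and glh-2 are similar in sequence, so the authors' counting could split their reads. Summed, they had 33814 ± 2579.8 normalized counts in Green worms and 26397 ± 6798 in Red worms (SD, n = 6 each).

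The 4 MEG genes, all on chromosome X, were higher in Green by more than the core genes at the median (0.52 against 0.42 on the log2 scale; the difference between the groups of genes was not tested). They encode disordered proteins of the embryonic germline that control how P granules form and dissolve. meg-1 ran from 10348 to 12616 normalized counts (median 11594) in Green worms, and from 6005 to 9619.9 (median 7494) in Red worms. No Red library reached the lowest Green library. Its log2 fold was 0.61 (SE 0.12; limma BH-adjusted p = 0.0017). meg-3, whose protein coats and stabilises P granules, ran from 5639.9 to 7089 normalized counts (median 6438) in Green worms, and from 3674 to 5451 (median 4389.5) in Red worms. Its groups did not overlap either, and its log2 fold was 0.54 (limma BH-adjusted p = 0.002). meg-4, which acts together with meg-3, and meg-2 had log2 folds of 0.51 and 0.47 (limma BH-adjusted p = 0.0066 and 0.0066). In both, Red replicate 6 alone reached into the Green range. meg-1 and meg-2 lie 906 bases apart on the same strand of chromosome X, and the calls of all 4 MEG genes held without any 1 library.

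Of the 12 Argonaute genes, 6 passed as higher in Green and 3 as lower, against 19.0% and 20.1% of all genes. The other 3 were not called. Among those lower, alg-3 and alg-4 reached the mean needed to be tested only through Red worms. The Argonautes of piRNAs and of secondary small RNAs in the germline were on the higher side. hrde-1, the nuclear Argonaute of inherited silencing, ran from 57546 to 69956 normalized counts (median 59846) in Green worms, and from 31173 to 64697 (median 41953) in Red worms. Red replicate 6, at 64697, lay inside the Green range, and the other Red libraries reached no more than 49388. Its log2 fold was 0.56 (SE 0.16; limma BH-adjusted p = 0.014). wago-1, a P granule Argonaute of secondary small RNAs, ran from 52969 to 64976 normalized counts (median 56629) in Green worms, and from 32282 to 54409.6 (median 41071) in Red worms, with a log2 fold of 0.48 (limma BH-adjusted p = 0.0082). Here too only Red replicate 6 reached the Green range. csr-1, whose protein binds small RNAs of expressed germline genes and is essential, had a log2 fold of 0.35 with groups that did not overlap (limma BH-adjusted p = 0.013). About 11.9% of its exon bases are also annotated to frpr-10 on the same strand. wago-4, which carries small RNAs between generations, had a log2 fold of 0.31 and was not called (limma BH-adjusted p = 0.079). It passed with the batch as a block (0.029) and without Red replicate 6, with a log2 fold of 0.43 (limma BH-adjusted p = 0.0023).

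prg-1 encodes the Piwi protein that binds piRNAs. It had 28187 ± 1731 normalized counts in Green worms and 22683 ± 4539 in Red worms (SD, n = 6 each), a log2 fold of 0.33 (limma BH-adjusted p = 0.031). Leaving out Green replicate 1, 3 or 6 or Red replicate 2, 4 or 5 ended the call, with limma BH-adjusted p of 0.054 to 0.075. prg-2, a close copy that the annotation lists as a pseudogene, had 8756 ± 410.5 normalized counts in Green worms and 6270.1 ± 1322 in Red worms (SD, n = 6 each), a log2 fold of 0.51 (limma BH-adjusted p = 0.0043). Reads of the copies may have been split between them. Summed, they had 36943 ± 1881 normalized counts in Green worms and 28953 ± 5860.3 in Red worms (SD, n = 6 each).

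The Argonautes encoded by rde-1 and ergo-1 bind primary small RNAs. rde-1, which receives small RNAs from double-stranded RNA, had a log2 fold of 0.37 (limma BH-adjusted p = 0.023). Its lowest library was Red replicate 6, without which the log2 fold was 0.27 (limma BH-adjusted p = 0.012). Leaving out Green replicate 3 or 6 ended the call, each with a limma BH-adjusted p just above the threshold. ergo-1, the Argonaute of a class of primary small RNAs of oocytes and embryos, ran from 29899.8 to 35118 normalized counts (median 30978) in Green worms, and from 24548 to 35194 (median 28343) in Red worms. The groups overlapped and its log2 fold of 0.14 was not called, with a 95% interval of -0.051 to 0.33 (limma BH-adjusted p = 0.22). Without Red replicate 6, its highest library, the log2 fold was 0.20 (limma BH-adjusted p = 0.028).

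The microRNA Argonautes ran the other way. alg-1 ran from 3156 to 3923 normalized counts (median 3435) in Green worms, and from 3969 to 5446 (median 4419.8) in Red worms. Every Green library lay below every Red library, which was so for 9.71% of all genes. Its log2 fold was -0.39 (SE 0.087; limma BH-adjusted p = 0.0035), and the call held without any 1 library. alg-2, its paralog, ran from 5086 to 6243 normalized counts (median 5468) in Green worms, and from 5704 to 8963 (median 6074) in Red worms. Green was the lower library in 5 of 6 batches, and its log2 fold of -0.22 was not called (limma BH-adjusted p = 0.097). alg-2 did pass as lower in edgeR (adjusted p = 0.033), with TMM scaling (0.038), with array weights (0.023) and after quantile normalization, where its log2 fold was -0.39 (limma BH-adjusted p = 0.0031). With each library centred on its median gene the log2 fold was -0.098 (limma BH-adjusted p = 0.53), and without Red replicate 6 its log2 fold was -0.13 (limma BH-adjusted p = 0.1). Summed, the pair had 9061 ± 663 normalized counts in Green worms and 11177 ± 1720.3 in Red worms (SD, n = 6 each). ain-1, which encodes a GW182-type partner of these Argonautes, was called lower too, at a log2 fold of -0.69 (limma BH-adjusted p = 0.0011).

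alg-3 and alg-4, Argonautes of spermatogenesis, were close to the limit of detection. alg-3 was covered by 51 reads in all Green libraries together and 152 in all Red libraries, and alg-4 by 21 and 100. The log2 folds were -1.34 and -1.77 (SE 0.49 and 0.62; limma BH-adjusted p = 0.042 and 0.036). Both ranges overlapped, and the highest library for each was Red replicate 1, with 41.9 and 62.9 normalized counts. alg-4 had no read in Green replicate 5. The call of alg-3 was lost without any 1 of 9 libraries (all but Green replicates 1 and 6 and Red replicate 3). Without Red replicate 6 the log2 fold of alg-3 was -1.20 (limma BH-adjusted p = 0.058). For alg-4, leaving out Green replicate 1, 3 or 5 or Red replicate 2 or 5 ended the call, and without Red replicate 1 the gene fell under a mean of 10 and was not tested. The fits that ended these calls had limma BH-adjusted p between 0.052 and 0.094 over both genes. Of 20 sperm genes, 9 had a mean under 10 normalized counts, ssp-9 among them at 0 in every library. Among the 11 tested, only ssp-10 was called higher and only spe-4 lower in Green, against 19.0% and 20.1% of all genes. The summed level of the 20 ran from 2923 to 3625 normalized counts in Green libraries and from 2019.6 to 6285 in Red libraries, the last in Red replicate 6. That of the 9 low sperm genes ran from 1.66 to 34.8 normalized counts in Green libraries and from 4.33 to 145 in Red libraries. It too was highest in Red replicate 1, and its part in the alg-3 and alg-4 values was not tested.

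**Figure D2:**
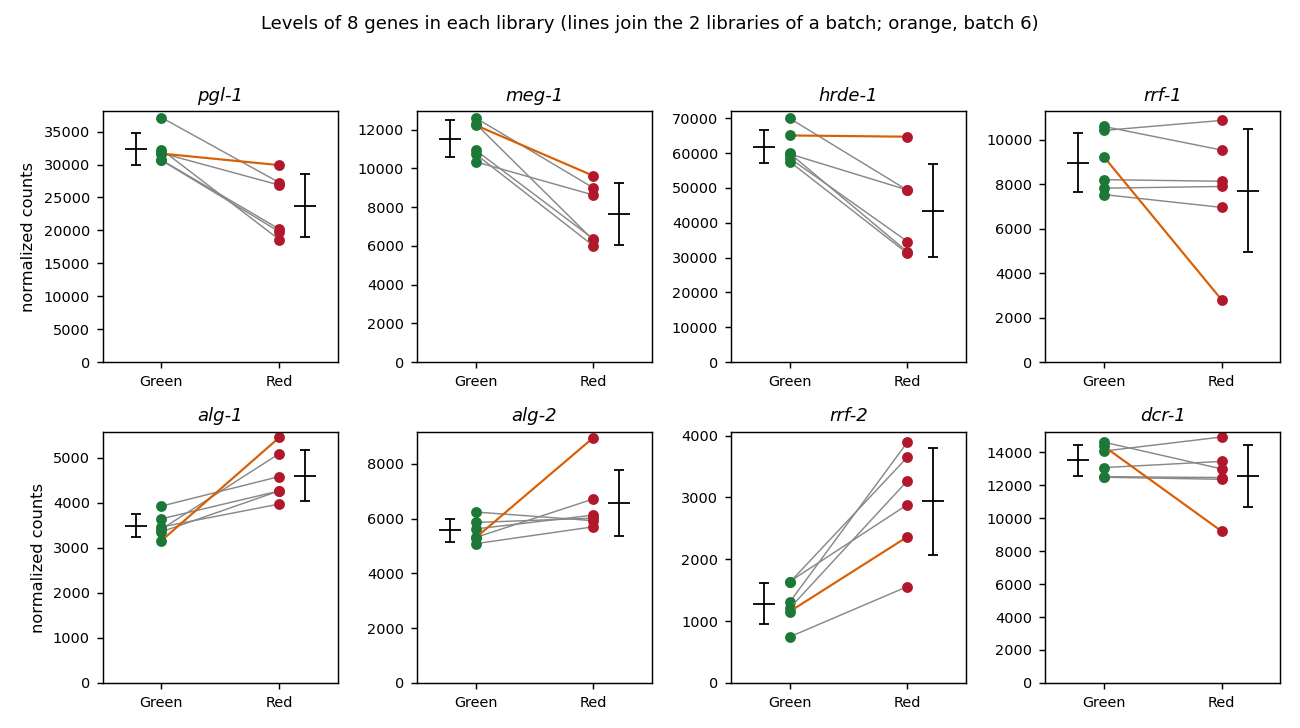
Normalized counts of 8 genes in each of the 6 Green and 6 Red libraries, on axes that start at 0. Lines join the libraries of a batch (batch 6 in orange) and the black marks give the mean and SD of each group. pgl-1, meg-1 and hrde-1 fall along every line while alg-1 and rrf-2 climb along every line, and Red replicate 6 is the lowest library for rrf-1 and dcr-1 and the highest for alg-1 and alg-2.

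Dicer and the factors that process the trigger RNA differed in part. dcr-1, which encodes Dicer, ran from 12493 to 14624 normalized counts (median 13578) in Green worms, and from 9214 to 14936 (median 12735) in Red worms. The groups overlapped, and the log2 fold of 0.12 had a 95% interval of -0.10 to 0.33 (limma BH-adjusted p = 0.36). Red replicate 6 was the lowest library, and without it the log2 fold was 0.031 (limma BH-adjusted p = 0.71). rde-4, the double-stranded RNA binding partner of Dicer, had 7642 ± 571 normalized counts in Green worms and 6053 ± 869.8 in Red worms (SD, n = 6 each). All Green libraries lay above all Red libraries, with a log2 fold of 0.35 (limma BH-adjusted p = 0.011). eri-1, an exonuclease that limits RNA interference, did not overlap either and had a log2 fold of 0.35 (limma BH-adjusted p = 0.0063).

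rde-10 and rde-11 encode partners in a complex that promotes secondary small RNAs. rde-10 was called at 0.25 (limma BH-adjusted p = 0.026), and leaving out Green replicate 3 or 6 or Red replicate 2, 4 or 5 ended this call. rde-11 was not called at 0.22 (limma BH-adjusted p = 0.084), nor was rde-12, a helicase that acts with Argonautes, at 0.10 (limma BH-adjusted p = 0.48). Red replicate 6 was the highest of all 12 libraries for rde-11 and rde-12, and without it both passed as higher in Green, at 0.29 and 0.21 (limma BH-adjusted p = 0.004 and 0.0094). rde-8, an endonuclease that cuts target RNA, was not called at 0.24 (limma BH-adjusted p = 0.1), and passed without Red replicate 3 (0.044). Without Red replicate 6 its log2 fold was 0.14 (limma BH-adjusted p = 0.12).

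Mutator genes encode the proteins of a perinuclear focus beside P granules where target RNAs are copied. mut-14, a helicase of the DEAD-box type, had 3446 ± 181 normalized counts in Green worms and 2505 ± 451 in Red worms (SD, n = 6 each). Its groups did not overlap, and its log2 fold of 0.48 was the highest of these genes (limma BH-adjusted p = 0.0035). The exonuclease-like gene mut-7 followed at 0.32 (limma BH-adjusted p = 0.012). mut-15 was called at 0.22 (limma BH-adjusted p = 0.046), but the call ended without any 1 of 8 libraries (all but Green replicate 1 and Red replicates 1, 3 and 6), with TMM scaling and with no filter. mut-16, the scaffold of the focus, had a log2 fold of 0.24 and was not called (limma BH-adjusted p = 0.053). It passed with the batch as a block (0.021) and with Green replicate 1, Red replicate 3 or Red replicate 6 left out. Without Red replicate 6 its log2 fold was 0.29 (limma BH-adjusted p = 0.013). Green was higher for mut-16 in 6 of 6 batches. rde-2, a partner of mut-7, was not called at 0.29 (limma BH-adjusted p = 0.075), and passed without Red replicate 3 (0.025). Without Red replicate 6 its log2 fold was 0.19 (limma BH-adjusted p = 0.083).

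The listed genes that go under other names in the table lie close to these values. The row named mut-2 (chromosome I, 6356614 to 6358411, WBcel235), which starts where RefSeq places rde-3, encodes a nucleotidyltransferase that adds tails to target RNAs. It had 5079 ± 321 normalized counts in Green worms and 3887 ± 778 in Red worms (SD, n = 6 each), a log2 fold of 0.41 (limma BH-adjusted p = 0.016). The row named ZK1067.2 carries the gene identifier now assigned to znfx-1, a helicase of the Z granule, a zone next to the P granule. It had 9399 ± 372 normalized counts in Green worms and 8198 ± 1322 in Red worms (SD, n = 6 each), and its log2 fold of 0.21 was not called (limma BH-adjusted p = 0.1). These 2 rows are not counted among the 42, and mut-2 stands among the further pathway genes described below.

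Of the 6 genes of the RNA-dependent RNA polymerase group, 2 passed as higher in Green, 1 as lower and 3 were not called. Over all genes 19.0% passed as higher and 20.1% as lower. ego-1, the polymerase of the germline, ran from 12281 to 15008 normalized counts (median 13145) in Green worms, and from 7242 to 12617 (median 9029) in Red worms. Only Red replicate 3 entered the Green range, and the log2 fold was 0.48 (SE 0.12; limma BH-adjusted p = 0.0069). rrf-3, which makes primary small RNAs, had a log2 fold of 0.36 (limma BH-adjusted p = 0.012). rrf-1, which makes secondary small RNAs in somatic tissues, ran from 7541 to 10609 normalized counts (median 8731) in Green worms, and from 2804 to 10880.2 (median 8023) in Red worms. Its groups overlapped almost fully once Red replicate 6 was set aside: the other Red libraries ran from 6964 to 10880.2. The log2 fold of 0.32 was not called (95% interval -0.21 to 0.86; limma BH-adjusted p = 0.32) and was 0.052 without that library (limma BH-adjusted p = 0.73). rrf-1 (chromosome I, 7643431 to 7649777, WBcel235) and ego-1 (chromosome I, 7650341 to 7656338) lie in tandem on the same strand, 563 bases apart.

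rrf-2, a related polymerase gene, had the largest difference among the 40 genes whose means reached 10 normalized counts in both groups. It ran from 744 to 1639 normalized counts (median 1255) in Green worms, and from 1558 to 3895 (median 3076) in Red worms. Green was the lower library in 6 of 6 batches, and the ranges met only because Red replicate 3 lay below Green replicates 1 and 4. Its log2 fold was -1.18 (SE 0.22; limma BH-adjusted p = 0.0013). Per kilobase of exon it was also the lowest of these 40 genes, with a mean of 434 normalized counts over all libraries. The cofactor genes drh-3, a helicase related to Dicer, and ekl-1, a Tudor-domain protein, were not called, at 0.20 and 0.15 (limma BH-adjusted p = 0.15 and 0.12). Both were higher in Green in 6 of 6 batches, and without Red replicate 6 the log2 fold of drh-3 was 0.11 (limma BH-adjusted p = 0.21). henn-1, the methyltransferase that protects piRNAs and the small RNAs of ERGO-1, had 2843 ± 192 normalized counts in Green worms and 2808 ± 422 in Red worms (SD, n = 6 each). Its log2 fold of 0.029 was not called, with a 95% interval of -0.18 to 0.24 (limma BH-adjusted p = 0.83), and was -0.042 without Red replicate 6.

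Levels spanned a wide range when set per kilobase of exon. wago-1 and hrde-1 were highest, with means over all libraries of 16198 and 14880.5 normalized counts per kilobase, ahead of pgl-1 at 11262, prg-1 at 9540.5 and deps-1 at 8469. The microRNA Argonautes were much lower, alg-2 at 1466 and alg-1 at 604, and alg-3 and alg-4 lowest of all at 4.59 and 2.98. Among the MEG genes, meg-1 stood at 4056 and meg-2, its neighbour, at 1016. The genes are spread over all 6 chromosomes, 15 of them on chromosome I.

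The direction of the differences was mostly shared by the batches. By sign, 26 of the 42 genes were higher in Green in 6 of 6 batches, against 21.1% of all genes, and 3 were lower in all (alg-1, alg-3 and rrf-2), against 20.2%. For alg-3 the sign in batch 3 rested on 2 reads in Green and 3 in Red. In 9 genes all Green libraries lay above all Red libraries, against 7.06% of all genes, and in 1 gene, alg-1, below, against 9.71%. Without Red replicate 6, 21 genes lay above, against 14.9% of all genes, and 1 below, against 13.9%. The median log2 difference of the 42 genes within a batch was 0.13 in batch 1, 0.38 in batch 2, 0.23 in batch 3, 0.48 in batch 4, 0.39 in batch 5 and 0.13 in batch 6. The median over all genes stayed between -0.025 and 0.058 in these batches.

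In batch 6 the genes were set differently, and Red replicate 6 lay apart from the other Red libraries. Within batch 6, 29 of the 42 genes were higher in Green, against 48.6% of all genes. In Red replicate 6 most P granule, MEG and germline Argonaute genes were higher than in the other Red libraries, while ego-1, rrf-1, rrf-3 and dcr-1 were below every other library. glh-1 had 24396 normalized counts in Red replicate 6, against 12750.2 to 18357 in the other Red libraries. rrf-1 had 2804 there, against 6964 to 10880.2. Among Red libraries replicate 6 was the highest for 21 of the 42 genes, against 32.8% of all genes. Among the 21 were 6 of 7 core P granule genes, 4 of 4 MEG genes and 9 of 12 Argonaute genes. It was the lowest for 11 of the 42, no larger a part than the 33.9% of all genes. These were 5 of 6 genes of the RNA polymerase group (ego-1, rrf-1, rrf-3, drh-3 and ekl-1) and dcr-1, rde-1, rde-2, rde-8, glh-3 and henn-1. All 11 were also lower there than in every Green library, for which the share over all genes was not counted.

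**Figure D3:**
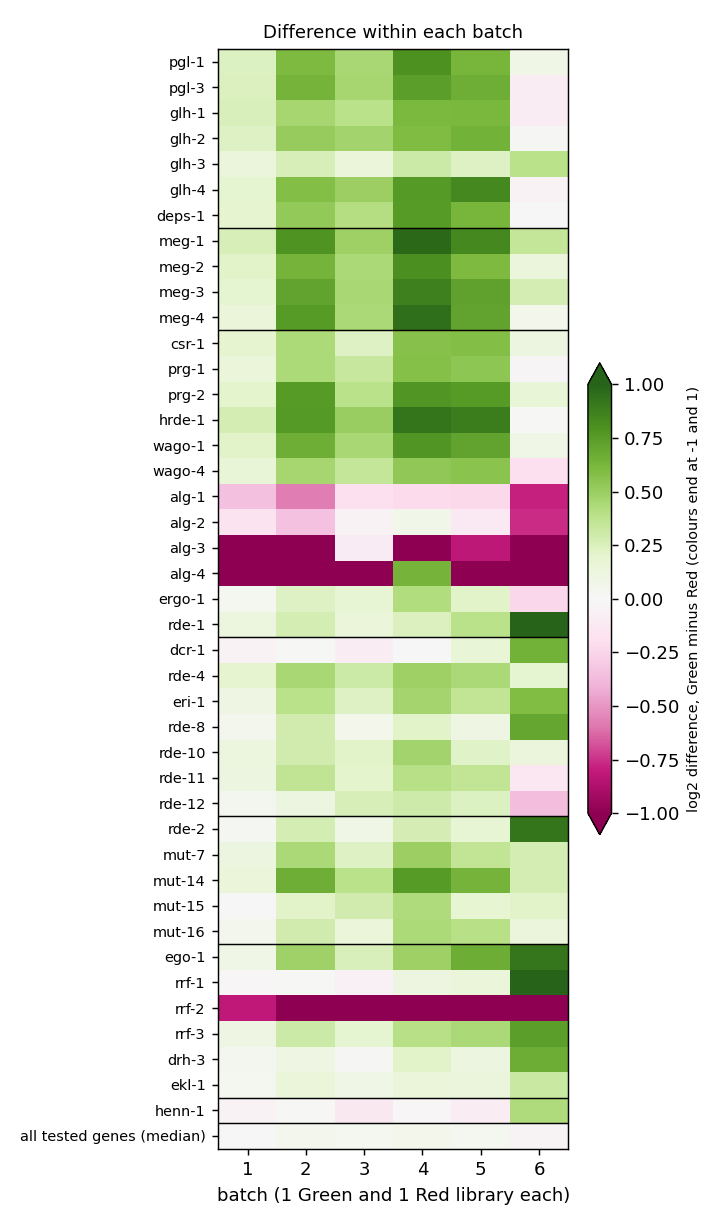
Log2 difference of Green minus Red within each of the 6 batches (columns) for the 42 genes (rows, divided by role), with the median of all tested genes in the last row. Green shades mean higher in Green and pink shades higher in Red, and colours end at -1 and 1. Core P granule and MEG genes are green in batches 1 to 5 and, apart from glh-3, meg-1 and meg-3, pale in batch 6, where rrf-1, ego-1, rde-1 and rde-2 are the darkest green.

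Other germline genes were higher in Green too. Of the 36 genes of meiosis and germ cell development 25 passed as higher and 0 as lower, against 19.0% and 20.1% of all genes. Their median log2 fold was 0.38. Those with the smallest p were the crossover gene cosa-1 at 0.53, lip-1 at 0.54, msh-5 at 0.47 and the chromosome axis gene him-3 at 0.46 (limma BH-adjusted p = 0.00088, 0.0019, 0.0021 and 0.0022). Of 24 oocyte and eggshell genes 21 passed as higher and 0 as lower, against the same shares of all genes, with a median of 0.48. Among them spn-4, chs-1, egg-2 and nos-2 had log2 folds of 0.58, 0.59, 0.63 and 0.60. The summed level of the oocyte genes ran from 947270 to 1144250 normalized counts in Green libraries and from 582212 to 1024080 in Red libraries, or no more than 846203 without Red replicate 6. Genes first transcribed in the early embryo ran the other way. Of 14, 9 were tested, and 6 passed as lower in Green and 0 as higher, against 20.1% and 19.0% of all genes. Among the lower ones tbx-37 stood at -0.98 and sdz-28 at -1.14. Of 14 genes of somatic tissues 3 passed as higher and 3 as lower, against 19.0% and 20.1% of all genes. The part of germ cell, oocyte or embryo number in the values of the 42 genes was not tested.

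Relative to other germline genes few of the 42 were called higher. When the mean log2 level of the 36 meiosis and germ cell genes was subtracted in each library, 2 of the 42 genes passed as higher in Green and 7 as lower, against 3.56% and 39.5% of all genes. In the same fit 9 of the 24 oocyte and eggshell genes passed as higher and 0 as lower. Of the 36 reference genes themselves, 5 passed as higher and 6 as lower. Among the 42, the higher ones were meg-1 at 0.29 and meg-3 at 0.21 on the relative log2 scale (limma BH-adjusted p = 0.0065 and 0.014). The lower ones were alg-1 at -0.72, alg-2 at -0.55, alg-3 at -1.66, alg-4 at -2.10, ergo-1 at -0.19, rrf-2 at -1.51 and henn-1 at -0.30 (limma BH-adjusted p = 0.00058, 0.002, 0.02, 0.015, 0.017, 0.0013 and 0.041). Of these, alg-3 and alg-4 reached the mean needed to be tested only through Red worms. pgl-1 was at 0.14 and prg-1 at 0.0072, neither called (limma BH-adjusted p = 0.086 and 0.94). With the oocyte list as the reference instead, 1 gene (meg-1) passed as higher and 12 as lower, against 2.3% and 51.1% of all genes. Then meg-3 was no longer called, and prg-1, wago-4, rde-11, rde-12 and mut-16 were called lower in addition. Without Red replicate 1, alg-4 fell under the filter and was not tested, and the call of henn-1 ended when any 1 of 9 libraries was left out (all but Green replicate 5 and Red replicates 1 and 6).

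The relative comparison depended on Red replicate 6. Without it, 14 genes passed as higher relative to the germline list and 14 as lower, against 5.14% and 52.0% of all genes. The higher ones were 6 of 7 core P granule genes (all but glh-3), the 4 MEG genes, prg-2, hrde-1, wago-1 and mut-14. hrde-1 then stood at 0.33 and pgl-1 at 0.19 (limma BH-adjusted p = 0.0012 and 0.0031). The lower ones added dcr-1 at -0.32, rrf-1 at -0.30, drh-3 at -0.25, ekl-1 at -0.24, rde-8 at -0.22, rde-2 at -0.17 and glh-3 at -0.14 (limma BH-adjusted p = 0.00088, 0.021, 0.0019, 0.0024, 0.0062, 0.027 and 0.024). With the batch as a block and all libraries kept, hrde-1, prg-2 and rde-12 were called in addition to the 9 (0.049, 0.049 and 0.037), rde-12 as lower.

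**Figure D4:**
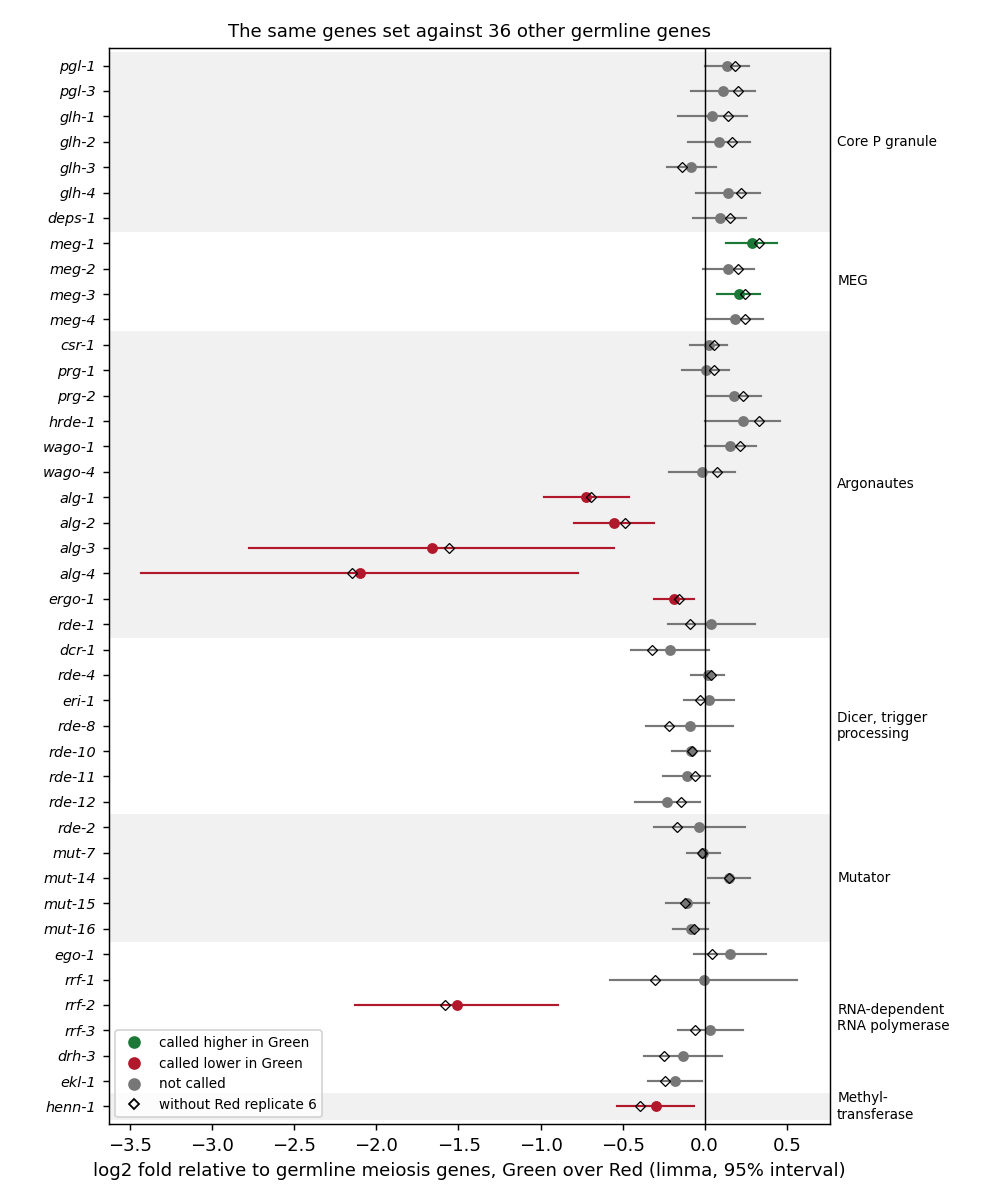
Log2 fold of Green over Red for the 42 genes after subtracting in each library the mean log2 level of 36 genes of meiosis and germ cell development, with the limma estimate and 95% interval over 6 Green and 6 Red libraries and open diamonds for the estimate without Red replicate 6. Most points lie near 0, with meg-1 and meg-3 called to the right and alg-1 to alg-4, ergo-1, rrf-2 and henn-1 called to the left.

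Other genes of the small RNA pathways were also called higher more often than lower. Of 63 such genes found, 62 were tested. Of these 24 passed as higher in Green and 5 as lower, against 19.0% and 20.1% of all genes, with a median log2 fold of 0.22. Those with the smallest p were D1081.7, now named lotr-1, at 0.55, C06A5.6, now named simr-1, at 0.51, the nuclease-domain gene tsn-1 at 0.54 and Y45G5AM.2, now named pid-5, at 0.43 (limma BH-adjusted p = 0.0012, 0.0042, 0.0057 and 0.007). Among those that fell in Green, the Argonaute gene wago-10 had 12.6 ± 4.96 normalized counts in Green worms and 49.97 ± 19.7 in Red worms (SD, n = 6 each), a log2 fold of -1.90 (limma BH-adjusted p = 0.00029). rsd-3, of systemic RNA interference, and drh-2, a helicase gene related to drh-3, had log2 folds of -0.23 and -0.49 (limma BH-adjusted p = 0.015 and 0.017). The count of genes called higher depended on single libraries, as did that over all genes (in parentheses, 2781 with every library). It was 10 (1975) without Green replicate 3, 15 (2257) without Green replicate 6 and 11 (2009) without Red replicate 2. It was 11 (2114) without Red replicate 4, 15 (2134) without Red replicate 5 and 33 (4291) without Red replicate 6. After quantile normalization 7 passed as higher and 8 as lower, against 16.1% of all genes in each direction.

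Of 14 further genes of germ granules 6 passed as higher and 1 as lower, against 19.0% and 20.1% of all genes. Those higher with the smallest p were C38D4.4, now named mip-1, at 0.48, the helicase gene cgh-1 at 0.53, F58G11.3, now named mip-2, at 0.32 and rnp-8 at 0.38 (limma BH-adjusted p = 0.0052, 0.014, 0.016 and 0.032). The one that fell was sepa-1, whose protein links P granule proteins to autophagy in somatic cells of the embryo. It had 1880.2 ± 339.9 normalized counts in Green worms and 3855 ± 738 in Red worms (SD, n = 6 each), a log2 fold of -1.03 (SE 0.14; limma BH-adjusted p = 0.00013). Every Green library lay below every Red library for sepa-1.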

How the data were processed

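Libraries came from a stranded mRNA kit, per the labels' protocols. The submitters' processing notes name build WBcel235 and the tools Salmon 0.14.2, STAR, DESeq2, FastQC 0.11.8 and MultiQC; settings and strand use in counting are not given in the sources used. The values are a normalized signal as deposited: the authors divided gene counts by 1 size factor per library. In every library 100% of values were whole reads within 0.001 after scaling by the recovered factor; in Red replicate 2 the factor lies near 1, so the test is less decisive there. Libraries of a group all differed by more than sampling noise.

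Groups were compared with limma 3.58.1 (eBayes, trended prior; R 4.3.3) after adding 1 to the normalized counts and taking log2. A mean of 10 admitted 14618 genes, with Benjamini-Hochberg adjusted p under 0.05 over all of them. Folds are Green over Red on this scale, which understates the change of low genes. The relative comparison subtracts the mean log2 level of the germline list in each library. Every one of the 42 genes is named; of each other list, up to 4 called genes per direction with the smallest p. The genes and lists were chosen with earlier results of these data known. Batch numbers in the labels pair the libraries, 1 Green with 1 Red each. Across genes, the deviations of partners had correlations of 0.11 to 0.37, beside a mean of -0.047 for libraries of different batches. In batch 1, however, each library correlated best with the library of the other colour in batch 4. Alternatives were the batch block, other pseudocounts (0.5 and 5), filters, scalings and weights, edgeR 4.0.16 (5609 genes called) and DESeq2 1.42.0 on the recovered reads, and leaving out libraries. Positions and exon lengths came from the Ensembl release 115 annotation of WBcel235, and Python 3.11.15 drew the figures. The fits were tested on simulated data. No sequence was used here.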

Additional observations from a re-analysis of the deposited data

Results flagged for a closer look

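A single library lay far from the other 5 of its group in 7 of the 84 groups examined (42 genes, each in Green and in Red), where chance flags about 1 group in 20. Green replicate 3 was the high one for pgl-1 (37137 normalized counts), glh-4 (14978), mut-14 (3789) and rrf-3 (8061). Red replicate 6 was the high one for alg-2 (8963) and rde-12 (17204). Red replicate 1 was the high one for alg-4 (62.9), a gene near the limit of detection.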

How the results depend on the processing

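Of the 29 calls among the 42 genes, 17 held under all 13 alternative settings and all 12 fits that leave out 1 library. With 1 library left out, the genes called higher ran from 18 to 30, those called lower from 2 to 4 and all calls from 20 to 33. The median log2 fold then ran from 0.29 to 0.38. Those called relative to the germline list ran from 8 to 28, and other pathway genes called higher from 10 to 33. Over all genes, those called higher ran from 1975 to 4291 and those called lower from 2426 to 3727. The batch as a replicate block gave 27 higher and 4 lower among the 42, beside 3392 and 3309 of all 14618 genes. Without the block, 2781 of all genes were called higher and 2938 lower. Apart from wago-4, mut-16 and the relative calls of hrde-1, prg-2 and rde-12, the block changed no call among the 42. Array quality weights gave 9048 calls over all genes, 4915 of them higher in Green, and 39 other pathway genes higher. Relative to the germline list, these weights called 32 of the 42 in either direction, beside 846 of all 14618 genes as higher and 9698 as lower. Without batch 6, 27 of the 42 were called in either direction relative to that list, beside 687 of all genes as higher and 7157 as lower. With every library and no weights, 9 of the 42 were called in either direction, beside 520 of all 14618 genes as higher and 5779 as lower. The rise in calls was thus shared by genes outside the 42. A mean of at least 50 left 2 genes called lower, since alg-3 and alg-4 were no longer tested. Quantile normalization gave a median of 0.17, with 7 other pathway genes higher and 8 lower, against 16.1% of all genes each way. Median centring gave a median of 0.45, with 3 other pathway genes lower, against 16.0% of all genes. The median of all genes was then 0.16, against 0.037 with the deposited scaling and the filter at 10. Without a filter the median of all genes was -0.13. The sign of 5 genes that were not called turned: under quantile normalization dcr-1 (-0.052), ekl-1 (-0.027), rde-12 (-0.050), henn-1 (-0.12) and ergo-1 (-0.023), and henn-1 also with TMM scaling (-0.0092), array weights (-0.0019), edgeR (-0.022), without batch 6 (-0.051) and without Red replicate 6 (-0.042; up to 0.080 when other libraries were left out). The cause was not tested. Depth limits only alg-3 and alg-4.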
